A study of Mus musculus with 6 samples.

Results

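The 9 genes described here, Cd79a, Cd79b, Ms4a1, Pax5, Ebf1, Ighm, Ighd, Cr2 and Fcer2a, mark the B cell lineage, and they were read in leukaemia cells sorted from mouse spleen. They were taken by name, and all 9 were found among the 27179 gene identifiers of the deposited counts, of which 25275 were matched to a symbol. The spleen is rich in B cells, so the levels of these genes serve as a gauge of B cell RNA in a sort meant to hold leukaemia. The leukaemia line is of C57BL/6 background and carries the A/E9a form of the AML1-ETO fusion, an activated NRAS (NRASG12D) and a loss of Ifnar1 (Ifnar1-/-), which encodes a chain of the receptor for type I interferons. Both groups carry all 3 alterations, and all 6 libraries are of this line. Mice received panobinostat, an inhibitor of histone deacetylases, or vehicle for 3 days, and live cells positive for green fluorescent protein were then sorted, with propidium iodide marking dead cells. Each group has 3 libraries of polyadenylated RNA, named here vehicle 1 to 3 and panobinostat 1 to 3 by the numbers in the column names. Whether each library stands for another mouse is not said in the labels. The p-values therefore measure the spread between libraries, part of which may be technical.

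B cells read antigen through a membrane immunoglobulin that signals through the Cd79a and Cd79b chains. Ebf1 and Pax5 are the transcription factors that set and keep B cell identity, and Ms4a1 (CD20) is a surface protein of mature B cells. Ighm and Ighd encode the constant parts of IgM and IgD heavy chains, which naive B cells make from a shared primary transcript. Cr2 (CD21, a complement receptor, also made by follicular dendritic cells) and Fcer2a (CD23, the low-affinity IgE receptor) are surface proteins of mature splenic B cells. Human leukaemias with AML1-ETO can express CD79A and PAX5 themselves, so a read of such a gene does not by itself name the cell it came from, and the source of these reads was not tested.

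The libraries held 31989622 to 35962605 counts. Levels are given as CPM, counts relative to the TMM-scaled library size, and a count of 0 allows up to 3 counts, or 0.0834 to 0.0948 CPM depending on the library. That limit and the intervals below cover counting error only, because the reads carry no molecular identifiers and are not independent molecules. The progenitor receptor Kit averaged 7.62 and Runx1t1, the fusion's partner gene, 7.52 on the log2 CPM scale, with log2 fold changes of -0.02 (SE 0.302) and 0.25 (SE 0.13). On the first principal component of all tested genes, which held 50.7% of the variance, vehicle 1 scored -53.7 and lay with panobinostat 1 to 3 (-16.7, -15.0 and -25.3), while vehicle 2 and 3 scored 54.3 and 56.4. Panobinostat 1 stood apart on the second component, with a score of 64.9. The edgeR quasi-likelihood test called 0 of 13207 tested genes, although 301 had an unadjusted p under 0.05, while DESeq2 called 7 higher and 2 lower.

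Promoter windows are printed for 2 members whose patterns are compared below: Cd79a, the gene whose values followed the other members most closely, and Cr2, whose share among the members varied. Both run 5′ to 3′ on the gene's strand from 250 bases before to 49 after the annotated start, from RefSeq's GRCm38.p6, and the capitals mark matches to an E box (CANNTG) or an ETS core (GGAAGT, or ACTTCC on the other strand).
Cd79a, chr7:24897247-24897546, plus strand: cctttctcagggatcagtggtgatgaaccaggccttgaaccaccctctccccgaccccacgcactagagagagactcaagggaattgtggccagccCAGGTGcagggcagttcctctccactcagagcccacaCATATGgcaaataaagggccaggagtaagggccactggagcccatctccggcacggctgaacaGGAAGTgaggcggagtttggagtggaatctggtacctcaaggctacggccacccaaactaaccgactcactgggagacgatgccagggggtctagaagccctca
Cr2, chr1:195176670-195176969, minus strand: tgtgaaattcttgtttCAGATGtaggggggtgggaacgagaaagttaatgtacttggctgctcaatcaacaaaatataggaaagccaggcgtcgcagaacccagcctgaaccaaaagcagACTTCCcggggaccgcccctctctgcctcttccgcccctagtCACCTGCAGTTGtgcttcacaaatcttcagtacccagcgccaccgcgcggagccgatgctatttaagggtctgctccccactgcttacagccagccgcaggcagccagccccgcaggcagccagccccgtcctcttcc

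In the Cd79a window the E boxes CAGGTG and CATATG begin 154 and 117 bases before the start, and GGAAGT begins 54 bases before it. Cr2 holds CAGATG 234 bases before its start, ACTTCC 130 bases before it, and the adjoining E boxes CACCTG and CAGTTG at 88 and 82 bases before it. Searched on both strands, CANNTG was present in 72.3% of all 32851 RefSeq windows of this length and GGAAGT in 23.8%, so neither match is rare. The octamer ATGCAAAT, present in 1.74% of windows, and CCCNNGGG, spaced like the palindrome that EBF binds and present in 13.7%, had no match in the windows of the 5 members that were matched (Cd79a, Pax5, Ebf1, Cr2 and Fcer2a). These matches describe letters only, and no binding or chromatin was measured here.

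All 9 genes were detected at low levels, and all 9 had lower estimates with panobinostat, but none was called. Their log2 fold changes had a median of -1.28, beside 0.00 over the 13207 genes tested. The estimate was below 0 in 9 of 9 members against 49.8% of genes, and it was -1 or lower in 7 of 9 against 2.5%. Each of the 9 adjusted p-values from edgeR's quasi-likelihood test was 0.998. At the threshold used for calls, an adjusted p under 0.05, 0% of all genes were called lower. Without vehicle 1 the same test called 0.419% of 13369 genes lower, and without both libraries numbered 1 it called 4.65% of 13239, with 0 of the 9 members among them either time. Every panobinostat library lay under every vehicle library for 2 of 9 members, Cd79b and Ebf1, against 3.63% of genes, and an unadjusted p under 0.05 with a lower estimate was found for 1 of 9, Cd79b, against 0.962%. In bulk RNA, fewer B cells in the sort and less of each RNA per B cell cannot be told apart.

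**Figure D1:**
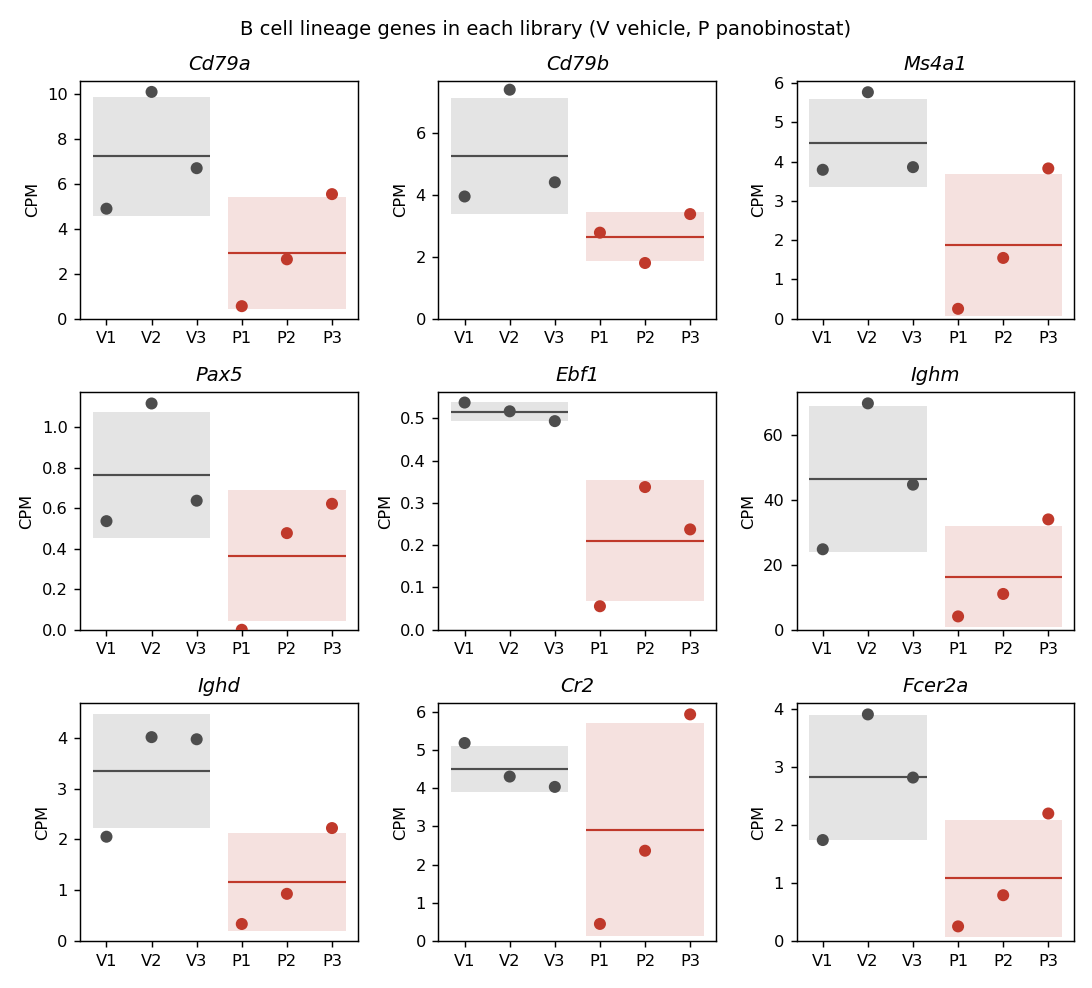
CPM of each of the 9 genes in the vehicle (V1 to V3, grey) and panobinostat (P1 to P3, red) libraries; points are libraries, lines the group means and bands 1 SD either side, stopped at 0, with an axis of its own in each panel. Panobinostat 1 is the lowest point for 8 of the 9 genes, and panobinostat 3 lies among the vehicle points for most.

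Among the genes of the B cell receptor, Cd79a (Entrez 12518, chromosome 7, 24897497 to 24901858 in GRCm38) had 4.90, 10.1 and 6.70 CPM in vehicle 1 to 3 and 0.556, 2.64 and 5.54 CPM in panobinostat 1 to 3. The groups overlapped, because panobinostat 3 lay above vehicle 1. Its means were 7.23 ± 2.64 and 2.91 ± 2.51 CPM (SD, n = 3 each), with a log2 fold change of -1.31 (SE 0.760). Cd79b (15985, chromosome 11, 106311341 to 106314562) had 3.95, 7.40 and 4.41 CPM with vehicle and 2.78, 1.80 and 3.38 CPM with panobinostat. Here all panobinostat libraries were under all vehicle libraries, but panobinostat 1 was not the lowest, unlike in the other 8 genes. The means were 5.25 ± 1.87 and 2.65 ± 0.798 CPM (SD, n = 3 each), and the log2 fold change was -0.99 (SE 0.367, unadjusted p 0.0341 in edgeR).

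Ighm (16019, chromosome 12, 113418826 to 113422730) was the most abundant member, at 24.8, 69.6 and 44.6 CPM with vehicle and 4.11, 11.02 and 33.95 CPM with panobinostat. Panobinostat 3 lay between vehicle 1 and vehicle 3. Group means were 46.4 ± 22.5 and 16.4 ± 15.6 CPM (SD, n = 3 each), and the log2 fold change was -1.50 (SE 0.775). Ighd (380797, chromosome 12, 113407535 to 113416324), which lies 2501 bases from Ighm, had 2.05, 4.02 and 3.97 CPM with vehicle and 0.334, 0.928 and 2.22 CPM with panobinostat. It was low in the same libraries as Ighm, and panobinostat 3 lay just above vehicle 1. Its log2 fold change was -1.53 (SE 0.688), the lowest estimate of the 9.

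The transcription factors gave the fewest counts. Pax5 (18507, chromosome 4, 44524748 to 44710694) had 17, 39 and 22 counts in vehicle 1 to 3 and 0, 17 and 21 in panobinostat 1 to 3, or 0.537, 1.12 and 0.638 against 0, 0.478 and 0.623 CPM. The 0 in panobinostat 1 allows up to 0.0834 CPM, still under the other 5 libraries. Its log2 fold change was -1.06 with an SE of 1.05. Ebf1 (13591, chromosome 11, 44618100 to 45008096) had 17, 18 and 17 counts with vehicle and 2, 12 and 8 with panobinostat, or 0.537, 0.516 and 0.493 against 0.0556, 0.337 and 0.237 CPM. The vehicle libraries were nearly level and the groups did not overlap, though they rest on few counts. The log2 fold change was -1.28 (SE 0.621).

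Among the surface proteins, Ms4a1 (12482, chromosome 19, 11249679 to 11266149) had 3.79, 5.77 and 3.86 CPM with vehicle and 0.250, 1.55 and 3.83 CPM with panobinostat. Panobinostat 3 lay between vehicle 1 and vehicle 3, and panobinostat 1 rested on 9 counts. The log2 fold change was -1.26 (SE 0.840). Fcer2a (14128, chromosome 8, 3680280 to 3694174) had 1.74, 3.90 and 2.81 CPM against 0.250, 0.787 and 2.19 CPM, again with panobinostat 3 inside the vehicle range, and its log2 fold change was -1.39 (SE 0.765). Its span overlaps that of Trappc5, which had 1204 to 1552 counts per library against 9 to 136 for Fcer2a. Without a stated strand setting, reads where the 2 genes overlap cannot be assigned with certainty. Cr2 (12902, chromosome 1, 195136811 to 195176880) had 5.18, 4.30 and 4.03 CPM with vehicle and 0.445, 2.36 and 5.93 CPM with panobinostat. It was the only member whose highest value lay in a panobinostat library, and its log2 fold change of -0.63 (SE 0.798) was the nearest to 0.

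Per kilobase of exon, which allows levels to be compared between genes, Ighm stood first with a mean of 24.6 CPM per kilobase in vehicle, followed by Cd79a at 4.96, Cd79b at 3.67 and Ighd at 1.76. Fcer2a (0.911), Ms4a1 (0.723) and Cr2 (0.555) came next, and Pax5 (0.0864) and Ebf1 (0.0528) were last. With panobinostat the means on the same scale were 8.68 for Ighm, 2.0 for Cd79a, 1.85 for Cd79b and 0.611 for Ighd, then 0.359 for Cr2, 0.348 for Fcer2a and 0.303 for Ms4a1, with Pax5 at 0.0414 and Ebf1 at 0.0215. Receptor chains were thus the highest and transcription factors the lowest in both groups. In vehicle, the neighbours Cd79a and Cd79b, Fcer2a and Ms4a1, Ms4a1 and Cr2, and Pax5 and Ebf1 each differed by less than the SD of the higher gene over its 3 libraries.

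The differences were uneven over the libraries. Summed over the 9 genes, CPM were 47.4, 107 and 71.6 in vehicle 1 to 3 and 8.78, 21.9 and 57.9 in panobinostat 1 to 3. Panobinostat 3 therefore lay above vehicle 1. Relative to each gene's vehicle mean, the 9 genes had a median of 8.88% in panobinostat 1 (0 to 52.9%), 34.6% in panobinostat 2 (23.8 to 65.4%) and 76.7% in panobinostat 3 (46.0 to 132%). All 9 were under every vehicle library in panobinostat 1 and in panobinostat 2, but only 2 in panobinostat 3. The share of all genes is not given for single libraries, so whether these counts are unusual is not known. Panobinostat 1 was the lowest of the 6 libraries for 8 of 9 members, against 20.4% of all tested genes, and vehicle 2 the highest for 7 of 9, against 22.4%. Without panobinostat 1 the median log2 fold change of the members was -0.83, and without panobinostat 3 it was -2.18. The spread was not only a matter of Ighm: without Ighm and Ighd the summed CPM were 20.6, 33.1 and 22.9 with vehicle and 4.34, 9.95 and 21.7 with panobinostat.

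Most members varied together across libraries. Over the 6 libraries, Pearson's r between a gene's log2 CPM and the mean of the other 8 was 0.998 for Cd79a, 0.992 for Ms4a1, 0.988 for Fcer2a, 0.975 for both Ighm and Ighd and 0.947 for Pax5, and it was 0.918 for Cr2 and 0.879 for Ebf1. Cd79b had the lowest, at 0.634. These correlations describe 6 libraries of like depth, among which panobinostat 1 and 2 hold most of the low values. The ratio of the highest to the lowest library was 18.2 for Cd79a, 16.9 for Ighm and 15.6 for Fcer2a, but 4.11 for Cd79b.

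To see whether the genes kept 1 ratio, pairs were set against each other within each library, as shares of their joint counts with exact (Clopper-Pearson) 95% intervals. Fcer2a made up 26.2, 27.9 and 29.6% of the counts of Fcer2a and Cd79a with vehicle and 31.0, 23.0 and 28.4% with panobinostat, all with overlapping intervals, the widest in panobinostat 1 (15.3 to 50.8%, from 9 counts of Fcer2a). Ighd made up 7.66, 5.45 and 8.17% of Ighd and Ighm with vehicle and 7.50, 7.76 and 6.15% with panobinostat. The Ighd share of vehicle 2 (4.61 to 6.40%) was below that of vehicle 3 (6.91 to 9.59%), with intervals that did not overlap. For comparison, the level of Cd79a differed 18.2-fold between the highest and the lowest library. For Ms4a1 beside Cd79a the shares were 43.6, 36.3 and 36.5% with vehicle and 31.0, 36.9 and 40.8% with panobinostat, the lowest with an interval of 15.3 to 50.8%.

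In panobinostat 1 the paired chains of the receptor came apart. Cd79b made up 44.6, 42.3 and 39.7% of the counts of Cd79b and Cd79a in vehicle 1 to 3, and 40.5% and 37.9% in panobinostat 2 and 3. In panobinostat 1 it made up 83.3% (95% interval 75.4 to 89.5%), from 100 counts of Cd79b beside 20 of Cd79a. That interval lies above those of the other 5 libraries, whose highest bound was 50.7%. Seen as a ratio, there were 5 counts of Cd79b for each of Cd79a there and 0.610 to 0.806 elsewhere. Cd79b also made up 31.6% of the summed CPM of the 9 genes in that library, and 5.84 to 8.32% in the others. Genes within 30 kilobases of Cd79b (Tcam1, Gh and Scn4a) had at most 0.801 CPM in any library.

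**Figure D2:**
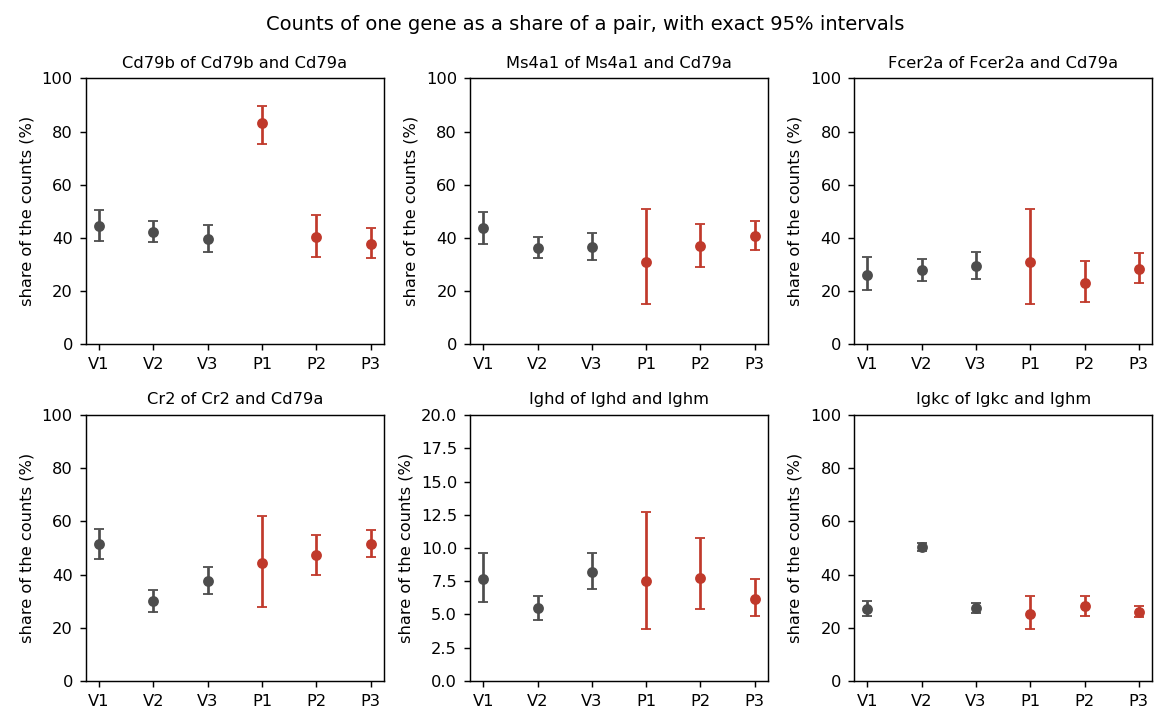
Share of the counts of a pair of genes taken by the first, in percent, in each library (V vehicle, P panobinostat), with exact 95% intervals as bars; the panel for Ighd has an axis up to 20%. Cd79b stands at 83.3% in panobinostat 1 and Igkc at 50.4% in vehicle 2, and most other points in a panel have overlapping intervals.

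Cr2 moved apart from Cd79a in another way. Its share of their joint counts was 51.4, 29.9 and 37.6% in vehicle 1 to 3 and 44.4, 47.2 and 51.7% in panobinostat 1 to 3. The intervals of vehicle 2 (25.9 to 34.1%) and vehicle 1 (45.8 to 57.0%) did not overlap, although both are vehicle. Follicular dendritic cells also make Cr2. Of their list, Cxcl13 (at most 2 counts), Madcam1 (0 counts in every library), Clu and Coch (at most 6 counts each) were near 0. Vcam1, which also stands in the monocyte and macrophage list, was highest in panobinostat 3, as Cr2 was. It had 5.57 CPM there and at most 3.76 CPM elsewhere. Mfge8 was instead highest in panobinostat 1 (49.8 CPM), where Cr2 was lowest. The summed level of that list was 26.3, 30.9 and 32.5 CPM with vehicle and 52.3, 24.0 and 31.3 CPM with panobinostat, mostly from Mfge8. The part of these cells in the Cr2 values was not tested.

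Some antibody genes outside the members stood further above the other libraries in vehicle 2 than Ighm did. Igkc, the kappa light chain that pairs with most mouse heavy chains, took 50.4% (48.9 to 51.8%) of the counts of Igkc and Ighm in vehicle 2 and 25.3 to 28.1% in the other 5 libraries. Igha, the IgA heavy chain, had 129 CPM in vehicle 2, beside 4.04 and 5.92 in the other vehicle libraries and 0.639, 1.12 and 4.03 in panobinostat 1 to 3. Jchain, which joins secreted IgA and IgM, likewise had 23.6 CPM in vehicle 2 and 0.556 to 3.25 elsewhere. The lambda light chains were also highest in vehicle 2, though by less than Igkc. Iglc1 had 1.07, 2.73 and 1.45 CPM with vehicle, Iglc2 1.36, 3.53 and 1.91 and Iglc3 1.55, 3.33 and 1.45. With panobinostat they had at most 0.771, 1.87 and 2.02 CPM, and their r with the members was 0.811, 0.969 and 0.986. Ighg2b, an IgG heavy chain, had 5.65 CPM in vehicle 2 and 0.222 to 1.39 elsewhere. IgA and the J chain are products of plasma cells above all. The plasma cell gene Mzb1 had 1.18 CPM in vehicle 2 and 0.0834 to 0.771 elsewhere, whereas Xbp1, at 91.2 to 116 CPM, had no such peak. Prdm1, a transcription factor of plasma cells, had 1.66 CPM in vehicle 2, below vehicle 1 and 3 (3.25 and 3.92). The plasma cell surface protein Sdc1, which did not pass the filter, had 4 counts there and 5 in vehicle 3, too few to rank. Of 7 tested plasma cell genes, 4 were highest in vehicle 2 (Jchain, Mzb1, Derl3 and Eaf2), against 22.4% of all tested genes. Derl3 and Eaf2 had only 21 and 23 counts in vehicle 2, and at most 11 and 16 elsewhere. Fkbp11 had a higher estimate with panobinostat, with 7, 7 and 3 counts with vehicle and 13, 14 and 23 with panobinostat. Its log2 fold change was 1.48 (SE 0.535, adjusted p 0.998 in edgeR). Slamf7, not tested, had 0.975 CPM in vehicle 2 and at most 0.415 elsewhere. The part of plasma cells in the members' values was not tested. The log2 fold changes of Igha (-4.59, SE 1.61), Jchain (-2.76, SE 1.1) and Igkc (-2.46, SE 1.03) include that library, and none was called (adjusted p 0.998 in edgeR).

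The further genes of the B cell programme were read from 7 lists with 111 genes in all, of which 95 were tested. Of these, 68 had lower and 27 higher estimates, 0 were called in either direction, and the median log2 fold change was -0.85. Without vehicle 1 edgeR called 2 of 99 tested in either direction, beside 268 higher and 56 lower of all 13369 genes. Without both libraries numbered 1 it called 14 of 99, beside 974 higher and 616 lower of all 13239 genes. Panobinostat 1 was the lowest library for 52 of the 95. Likeness to the members was taken as Pearson's r over the 6 libraries with the mean of their centred log2 CPM. Of the 95, 39 had r above 0.9, against 2.69% of all tested genes, and 30 had r below 0. The share of all genes with r below 0 is not given. Whether this count and the later counts below 0 are unusual is therefore not known.

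Lists of B cell surface and antigen presentation genes had mostly lower estimates, with 0 called. Of 18 tested receptor chains and coreceptors, 15 had lower and 3 higher estimates, with a median log2 fold change of -1.46. Cd81 and Cd37, membrane proteins of many blood cells, were the most abundant of the list and did not have the members' pattern: Cd81 had 377, 132 and 94.4 CPM with vehicle and 174, 256 and 283 with panobinostat. Of 22 tested surface, survival and homing receptors, 16 had lower and 6 higher estimates (median -1.03), while the 4 most abundant, Scd1, Cd55, S1pr4 and Ralgps2, had log2 fold changes of -0.33 to 0.38. For class II antigen presentation 9 of 11 genes had lower and 2 higher estimates (median -0.74). Cd74, the invariant chain, had 30.1, 52.6 and 34.7 CPM against 4.86, 15.7 and 32.6, and the class II chain H2-Aa had 7.90, 18.3 and 10.1 against 1.22, 3.93 and 8.69.

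The abundant genes of receptor signalling did not follow the members. Of 16 genes of signalling below the receptor, 8 had lower and 8 higher estimates (median 0.02). Grb2, a linker protein, had 366, 403 and 376 CPM with vehicle and 426, 356 and 335 CPM with panobinostat, and Btk, a kinase of B and myeloid cells, had an r of -0.61 with the members. Lower in level, the adaptors Blnk and Bank1, named after their values were seen, had r of 0.975 and 0.990. Of the 16 genes, 5 had r above 0.9 and 9 had r below 0. Of 16 further transcription factors, 12 had lower and 4 higher estimates (median -0.44). Tcf3, which with Ebf1 opens the B cell programme, had 239 to 381 CPM, and Pou2af1, the B cell coactivator of the octamer factors, had 2.65, 4.93 and 3.28 CPM with vehicle and 0.306, 0.871 and 3.02 with panobinostat. Tcf3 was thus far above Ebf1 and Pax5 in counts, a comparison that takes no account of gene length.

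Genes of precursor B cells were mostly low. Of 12, 5 were tested, 3 with lower and 2 with higher estimates. Of the surrogate light chain genes, Vpreb1 had 30, 8 and 7 counts with vehicle and 19, 17 and 26 with panobinostat, and its r with the members was -0.30. Vpreb2 had 2 to 11 counts in a library and Igll1 at most 2, the recombinase gene Rag1 at most 4, and Rag2 had 0 counts in every library. Cd24a, a surface protein of many blood cells, had 298 CPM in panobinostat 1 and 681 to 1013 in the other 5 libraries. Of 7 tested plasma cell genes, 5 had lower and 2 higher estimates (median -0.42), and the plasma cell receptor Tnfrsf17 had 0 counts throughout.

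**Figure D3:**
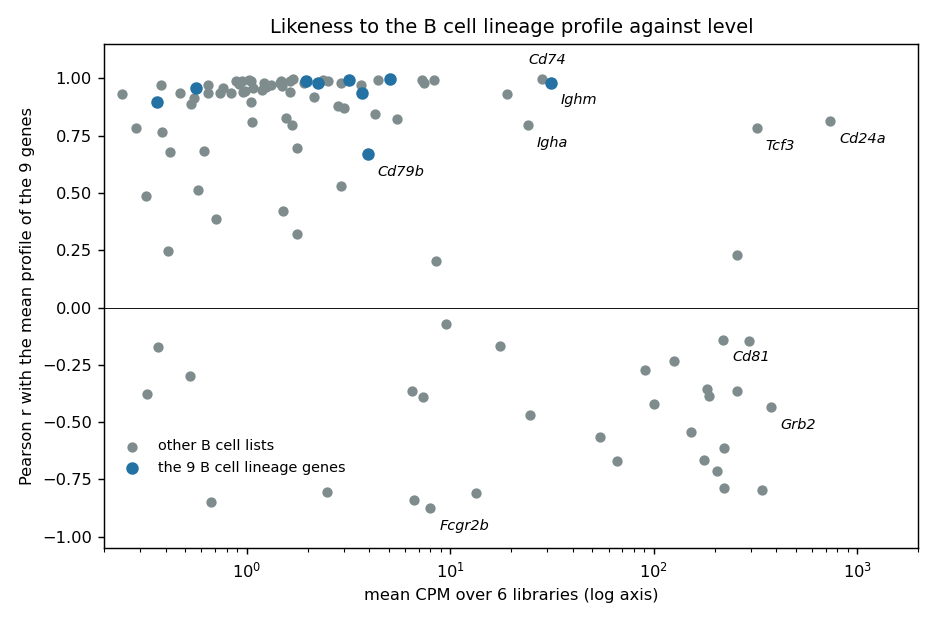
Pearson's r over the 6 libraries with the mean profile of the 9 genes (vertical) against mean CPM on a log axis (horizontal) for tested genes of the 7 B cell lists (grey) and the 9 genes themselves (blue, each of which is part of that profile). Genes near r of 1 lie mostly under 10 CPM, whereas abundant genes such as Grb2 and Cd81 lie below 0, while Tcf3, Cd24a and Scd1 (0.231) lie above it.

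The 10 genes outside the 9 with the highest r, from 0.993 to 0.999 over 6 libraries, included Irf8, Cd74, Fam169b, Zc3h12d, Fcrla, Gm8989, H2-Eb1, Fcmr and H2-Aa. Of these, 7 stand in a B cell list and 3 (Fam169b, Zc3h12d and Gm8989) in none. Irf8, a transcription factor of B and myeloid cells, had 1.90, 2.93 and 2.26 CPM with vehicle and 0.334, 0.956 and 1.78 CPM with panobinostat. Fcmr, the receptor for IgM, had 2.34, 4.62 and 2.90 against 0.139, 1.12 and 3.08. The ranking is a description: without the 2 libraries farthest from the median, panobinostat 1 and 2, r ran from 0.894 to 0.994 over the remaining 4.

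Markers of some other cell types also stood apart in panobinostat 1. The T cell list summed to 28.5, 30.5 and 24.1 CPM with vehicle and 13.0, 15.5 and 26.2 CPM with panobinostat. Its most abundant gene, Cd247, was highest in panobinostat 1, with 10.1 CPM there and 5.57 to 8.75 CPM elsewhere. Without Cd247 the list summed to 22.5, 21.8 and 15.6 CPM with vehicle and 2.86, 7.98 and 20.6 CPM with panobinostat. Of 17 tested T cell genes, 16 were lowest in panobinostat 1. All 17 had lower estimates, with 0 called and a median of -0.89. Globin and other erythroid genes, led by Hba-a2, summed to 23393, 13769 and 7544 CPM with vehicle and 2723, 17310 and 22505 with panobinostat, and 10 of 11 were lowest in panobinostat 1. In the opposite direction, mast cell and basophil genes, led by Il1rl1, summed to 3664 CPM in panobinostat 1 and 2238 to 2518 in the other 5 libraries. For 8 of 11 of them panobinostat 1 was the highest library, and 11 of 11 had r below 0 with the 9 B cell genes. The part of these cells, or of the purity of each sort, in the B cell values was not tested.

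**Figure D4:**
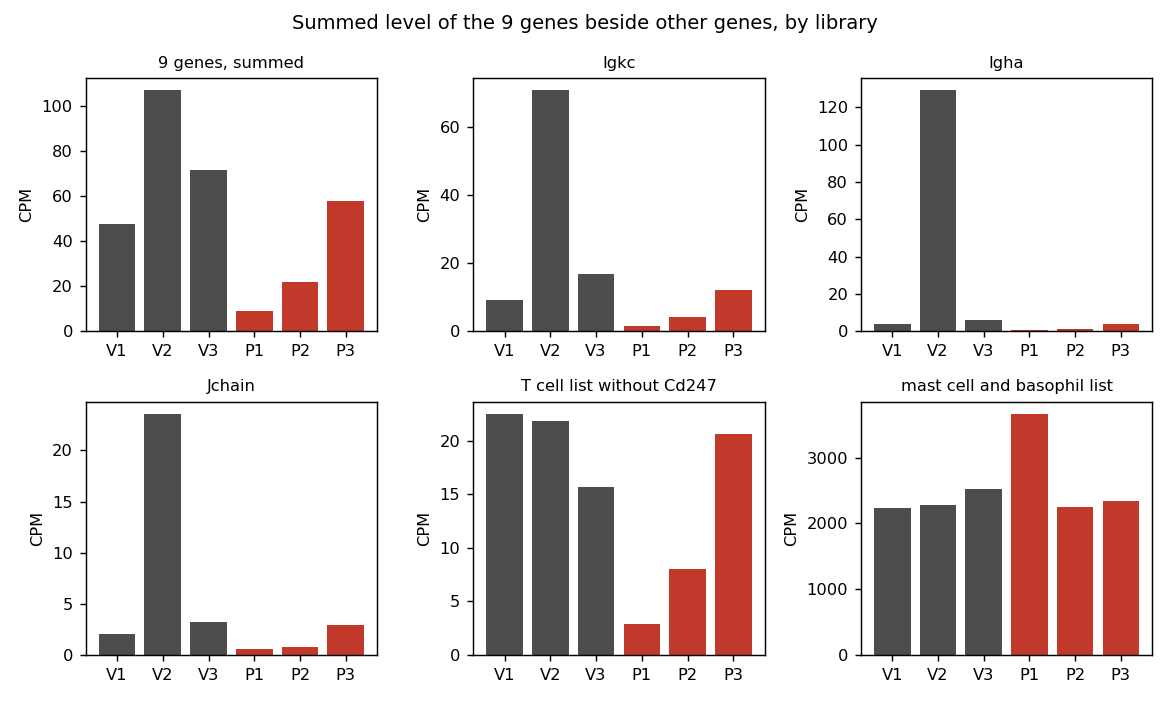
Summed CPM of the 9 genes, CPM of Igkc, Igha and Jchain, and summed CPM of the T cell list without Cd247 and of the mast cell and basophil list, as bars from 0 for each library (V vehicle, P panobinostat). The 9 genes and the T cell list without Cd247 are both lowest in panobinostat 1 (8.78 and 2.86 CPM). The antibody genes peak in vehicle 2, and the mast cell list peaks in panobinostat 1.

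Of the remaining lists, monocyte and macrophage genes summed to 70.1 to 78.4 CPM with vehicle and 31.5, 69.4 and 91.9 with panobinostat. The low sum in panobinostat 1 is mostly that of Slc40a1 (14.5 CPM there and 38.4 to 54.6 elsewhere), while 6 of the 15 tested genes were lowest in that library and 0 had r above 0.9. Dendritic cell genes, led by Bst2, summed to 46.5, 38.3 and 31.5 against 36.8, 50.4 and 50.4 CPM. Granulocyte genes, led by S100a9, summed to 0.556 CPM in panobinostat 1 and to at most 4.79 CPM. Natural killer cell genes summed to 28.0 CPM in vehicle 1, with 15.5 from Gzmb, and to 1.39 to 4.20 elsewhere. Megakaryocyte genes, led by Gp5, summed to 515 CPM in vehicle 1 and to 281 to 445 in the others.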

How the data were processed

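RNA was sequenced from 6 libraries of sorted leukaemia cells, 3 per group. The authors deposited raw read counts, whole numbers per Entrez gene. The submitters' processing notes name HISAT2 2.1.0 with build mm10, cutadapt 2.1, Subread 2.0.0 with featureCounts, bcl2fastq 2.17.1.14, FastQC 0.11.6 and limma. Their annotation, strand setting and options: not given in the sources used here. Symbols and spans (1-based) came from RefSeq's GRCm38.p6, and exon lengths from the union of GENCODE M21 exons. Column numbers 1 to 3 are not tied to the labels' replicate numbers.

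The deposited counts were tested with edgeR 4.0.16 in R 4.3.3. Settings were filterByExpr (minimum count 10), TMM factors and the robust quasi-likelihood test, two-sided, with Benjamini and Hochberg adjustment over all 13207 tested genes at 0.05. Correlations used log2 CPM with a prior count of 2. The SE is the size of the log2 fold change over the square root of F. Intervals of shares came from scipy 1.17.1. On simulated counts of this comparison (13207 genes), the test found 31 of 100 genes altered 2-fold, 69 of 100 altered 4-fold, and 7 false ones among 13007. There each gene was drawn independently, without shifts shared by many genes of a library as in vehicle 1 and panobinostat 1. These rates may therefore not hold for the real counts.

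The 9 genes and the lists were chosen with earlier results of these data known. The genes named were all 9 members, up to 4 of the most abundant of each B cell list, the 10 most alike by r, and the most abundant gene of each other list, except that 1 gene these choices took is not reported here. Others named and the pairs shown were chosen after their values were seen. Among these genes were Pou2af1, Blnk, Bank1, Mzb1, Sdc1, Slamf7, Derl3, Eaf2, Fkbp11, Iglc1, Iglc2, Iglc3, Ighg2b, Vpreb2, Igll1, Rag1, Vcam1, Clu and Coch. Alternatives were other scalings (RLE, upper-quartile, library size alone), other filters (none, or a mean of 1 CPM or more), DESeq2 1.42.0, limma-voom (limma 3.58.1), a replicate block, each library left out, and both libraries numbered 1 left out.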

Additional observations from a re-analysis of the deposited data

How the results depend on the processing

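All 9 estimates stayed below 0 and 0 of the 9 genes were called in each of the 15 alternatives (7 of 7 tested under a mean of at least 1 CPM), and the median log2 fold change of the 9 ran from -2.18 to -0.83. Unadjusted p under 0.05 was found for 1 member in edgeR, 3 with DESeq2, 7 with limma-voom, and 0 to 6 with 1 library left out. For edgeR this stands against 0.962% of all genes, counted with a lower estimate. The share of all genes is not given for the other settings, so whether their counts are unusual is not known. Over all genes, edgeR called 0 higher and 0 lower. DESeq2 called 7 and 2, and with each library left out in turn the counts ran from 0 to 268 higher and from 0 to 56 lower, the highest without vehicle 1. Without both libraries numbered 1 they were 974 and 616. The cause was not tested. With the replicate block the median was -1.75 and 0 members were called. Deviations of same-numbered libraries correlated at -0.139, 0.0720 and -0.203. With 3 libraries a group these values cannot settle whether the numbers pair the samples, and pairing stays unknown. Depth limits Pax5 and Ebf1, which had at most 39 counts in a library.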

Other observations

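Some single genes of the B cell lists did not follow the 9 genes, and those named here were chosen after their values were seen. Of the 95 tested, 15 were highest in panobinostat 1, a smaller share than the 21.3% of all tested genes. That count therefore does not set the lists apart from other genes. Fcgr2b, the inhibitory Fc receptor of B cells and also of mast and myeloid cells, had 9.0, 3.21 and 5.16 CPM with vehicle and 16.4, 7.0 and 7.09 CPM with panobinostat. Bach2, a transcription repressor of B cells, had 17.7 CPM in panobinostat 1, 4.01 to 8.78 with vehicle, and 2.64 and 2.73 in panobinostat 2 and 3. H2-Oa, a chain of the class II modulator DO, had 16.0 CPM in panobinostat 1 and 2.44 to 8.81 in the other libraries.

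Its partner chain H2-Ob had another order, with 17.0 CPM in vehicle 1, 4.25 and 3.86 in vehicle 2 and 3, and 6.45, 9.95 and 16.0 in panobinostat 1 to 3. Vehicle 1 thus lay with the panobinostat libraries for this gene, as it did for Cd81 and Ralgps2 (87.1 CPM in vehicle 1, 29.2 and 26.3 in vehicle 2 and 3, and 55.7 to 70.2 with panobinostat). Syk, a kinase below the B cell receptor and in myeloid cells, had 26.9 CPM in panobinostat 3 and 1.55 to 6.25 in the other 5 libraries. Cd9, a membrane protein of marginal zone B cells and of many other cells, had 14, 22 and 13 counts with vehicle and 2, 4 and 3 with panobinostat, a log2 fold change of -2.45 (SE 0.499, unadjusted p 0.00225 and adjusted p 0.998 in edgeR).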
